A study of Rattus norvegicus with 27 samples.

Results

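Genes of the insulin-like growth factor (IGF) system, 10 in all, were followed in cultured rat Schwann cells, the glia that ensheathe peripheral axons: the protease gene Pappa, the binding protein genes Igfbp2, Igfbp3, Igfbp4, Igfbp5, Igfbp6 and Igfbp7, the ligand gene Igf2, the receptor gene Igf1r and the receptor adaptor gene Grb10. They were taken by gene name from a table of 17315 genes, and all 10 had a row. Pappa and Grb10 were chosen by how strongly their measured levels differ between the stages of these same libraries, so their values are a description and carry no test. The other 8 were listed as the rest of the axis with earlier results of these data known.

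IGF1 and IGF2 signal through the IGF1 receptor, and secreted IGF binding proteins hold most of the ligand away from it. PAPP-A, the product of Pappa, is a secreted metalloprotease that cuts IGFBP4 and IGFBP5 and so frees bound IGF, and the stanniocalcins STC1 and STC2 inhibit it. GRB10 binds the activated IGF1 and insulin receptors and dampens their signal, and its gene, like Igf2, is imprinted. IGFs are known as survival and growth factors for Schwann cells.

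The cells were commercial primary rat Schwann cells used at passages 3 to 5. All cell mRNA libraries fall into 3 stages with 3 libraries each, named as biological replicates. Undifferentiated cells were kept without dibutyryl cyclic AMP (dbcAMP), a membrane-permeable cyclic AMP analogue, and their medium is not described further. Differentiated cells were held for 72 h in 1 mM dbcAMP in DMEM with 1% exosome-depleted serum. Dedifferentiated cells had the same 72 h and then another 72 h without dbcAMP in a complete medium with 10% exosome-depleted serum, forskolin and 10 ng/mL neuregulin. Stage therefore cannot be told apart from medium, serum, forskolin, neuregulin and time in culture. Withdrawal below means that of dbcAMP alone, since forskolin was in the medium that followed. The titles do not say whether replicates came from separate cultures, animals or cell lots, so p-values measure the spread between these libraries, which may be technical. Replicate 3 of every stage carries another sequencing project code than replicates 1 and 2.

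Column totals ran from 10058735 to 16212278 estimated counts, and levels are given as counts per 1000000 of the column total (CPM). The Schwann cell label was checked against 5 markers (S100b, Sox10, Erbb3, Cdh19, Ngfr), and all 5 passed the filter and had at least 541 counts in every library. Their summed level was 6616 to 8142 CPM in undifferentiated, 4108 to 4517 in differentiated and 7338 to 7697 in dedifferentiated libraries. The dip of this sum follows Ngfr, which averaged 4423, 1148 and 3722 CPM in the 3 stages. Sox10 and Cdh19 were also lower in differentiated cells, while S100b rose from 407 to 776 CPM and Erbb3 from 808 to 1257 CPM. A list of 6 fibroblast markers summed to 24363 to 29064, then 11924 to 15586, then 15935 to 19352 CPM, nearly all of it Col1a1 and Col1a2. Of its other members, Lum was at 0 in every library, Pdgfra and Dcn did not exceed 0.884 CPM, and Thy1 did not exceed 1.92 CPM. A pericyte list of 4 genes summed to 121 to 153, 539 to 806 and 320 to 344 CPM, nearly all of it Pdgfrb, with Rgs5 at 0. Acta2, of the same list, dipped and returned, with means of 3.16, 0.199 and 7.3 CPM. Endothelial (Cdh5 at 0) and leukocyte (Aif1 at 0) lists of 4 genes each reached at most 8.26 and 5.09 CPM, both in differentiated libraries. Within them Tek averaged 1.26, 6.61 and 5.23 CPM, Cd68 0.724, 3.41 and 1.36, and Csf1r 0, 0.71 and 0.718. The list sums and these markers move with stage as the genes below do, and their part in the results was not tested. In bulk libraries, fewer cells of a type and less RNA per cell cannot be told apart.

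The genes fell into 4 patterns over the 3 stages. Pappa, Igfbp7 and Igfbp3 were low in differentiated cells and higher again after withdrawal. Grb10 and Igfbp5 were low in differentiated cells and still low after withdrawal. Igfbp4 and Igf2 were highest in differentiated cells. Igf1r kept nearly the same mean level in the 3 stages, and Igfbp2 and Igfbp6 were near 0 throughout. Among the 8 genes other than Pappa and Grb10, 6 passed the filter on low counts. Of those 6, Igfbp4 passed through its differentiated libraries alone, where it is high, so it is described without a test and 5 remain. By edgeR's quasi-likelihood test over 10372 genes, with calls below 0.05 after Benjamini-Hochberg adjustment, 4 of these 5 changed on differentiation, 1 higher and 3 lower. The share of all tested genes called in that comparison was 59.6%, with 31.7% higher and 27.9% lower. From differentiated to dedifferentiated cells 3 of the 5 changed, 2 higher and 1 lower, against 46.4% of all genes, 23.2% higher and 23.2% lower. Between dedifferentiated and undifferentiated cells 2 of the 5 changed, both lower, against 29.4% of all genes, 16.1% higher and 13.3% lower. With so large a background, counts of called members say little beyond what the tested transcriptome did, and the sizes of the changes are given gene by gene.

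**Figure D1:**
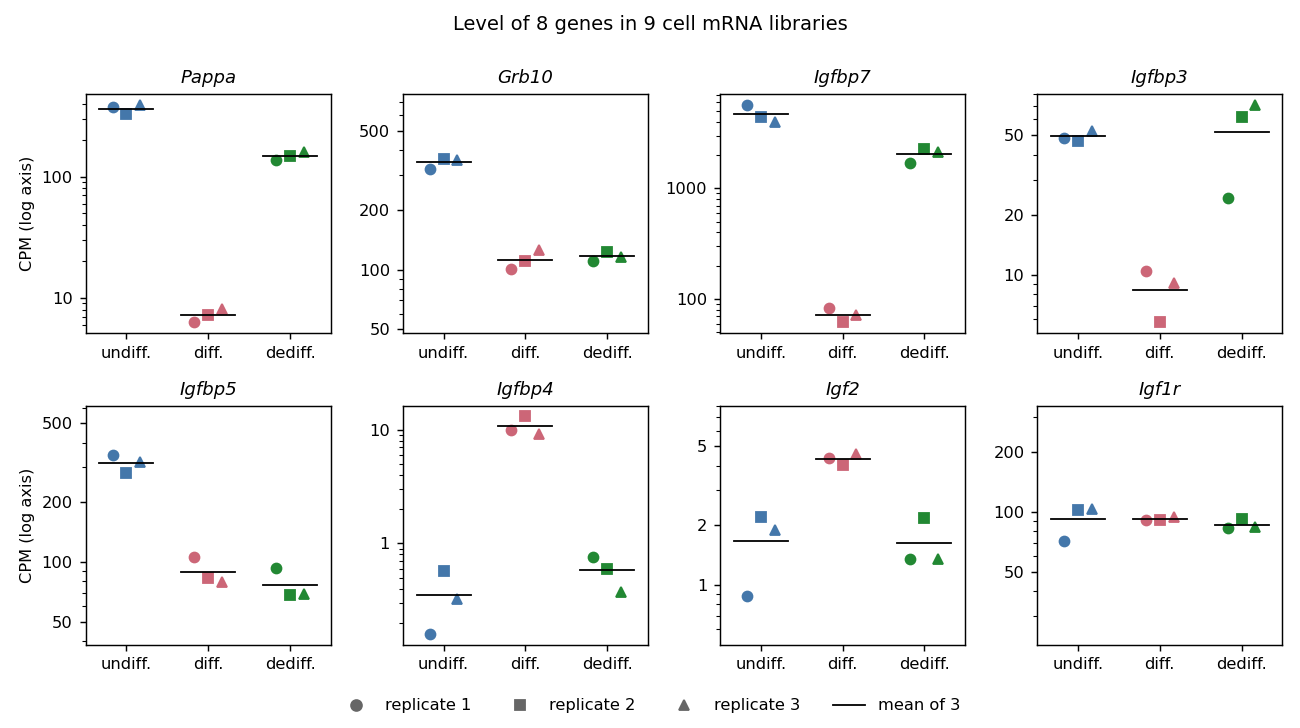
Level in CPM (log axis, a separate scale in each panel) of the 8 genes that passed the filter, in undifferentiated, differentiated and dedifferentiated cells. Symbols are the 3 replicate libraries of a stage and lines their mean. Pappa and Igfbp7 dip in the differentiated libraries and partly return, Grb10 and Igfbp5 stay low, Igfbp4 and Igf2 peak in differentiated cells, and Igf1r stays between 71.8 and 103 CPM.

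Upstream sequences of 5 of these genes are shown because they stand for the 3 patterns that changed: Igfbp7 and Igfbp3 for the dip, Grb10 and Igfbp5 for the lasting low level, and Igfbp4 for the peak. They come from RefSeq, build GRCr8, read 5′ to 3′ on the gene's own strand, from 250 bases before the annotated start up to the start or to the edge of the gene's annotated span, where that comes earlier (Igfbp7 and Grb10). Capitals mark GC boxes (GGGCGG on either strand) and TATA boxes (TATAAA on either strand).
Igfbp7, chr14:31091486-31091680, plus strand: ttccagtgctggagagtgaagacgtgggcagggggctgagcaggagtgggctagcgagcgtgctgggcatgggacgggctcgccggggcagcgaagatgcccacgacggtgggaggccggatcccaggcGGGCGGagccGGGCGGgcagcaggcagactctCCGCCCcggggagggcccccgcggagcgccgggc
Igfbp3, chr14:86277945-86278194, minus strand: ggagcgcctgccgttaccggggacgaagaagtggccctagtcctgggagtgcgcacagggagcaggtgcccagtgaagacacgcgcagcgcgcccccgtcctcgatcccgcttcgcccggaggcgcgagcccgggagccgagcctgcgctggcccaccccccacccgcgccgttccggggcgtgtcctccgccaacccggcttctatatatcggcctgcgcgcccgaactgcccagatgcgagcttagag
Grb10, chr14:90816400-90816637, minus strand: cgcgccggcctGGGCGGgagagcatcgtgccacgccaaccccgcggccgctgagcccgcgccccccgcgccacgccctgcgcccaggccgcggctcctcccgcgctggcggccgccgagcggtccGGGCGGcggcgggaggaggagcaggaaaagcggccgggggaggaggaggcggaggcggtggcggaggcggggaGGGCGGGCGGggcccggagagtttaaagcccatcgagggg
Igfbp5, chr9:81914188-81914437, minus strand: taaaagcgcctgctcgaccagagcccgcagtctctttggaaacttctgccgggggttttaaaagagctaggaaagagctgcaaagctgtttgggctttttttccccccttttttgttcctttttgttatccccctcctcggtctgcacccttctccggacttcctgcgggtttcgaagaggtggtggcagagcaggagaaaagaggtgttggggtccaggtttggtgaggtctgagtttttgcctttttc
Igfbp4, chr10:84491221-84491470, plus strand: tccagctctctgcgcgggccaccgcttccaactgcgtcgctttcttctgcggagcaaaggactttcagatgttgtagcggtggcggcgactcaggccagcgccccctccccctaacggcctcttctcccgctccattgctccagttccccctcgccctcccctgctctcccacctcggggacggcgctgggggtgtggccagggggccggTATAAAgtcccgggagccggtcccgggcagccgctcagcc
The Grb10 window was 81.1% G and C and the Igfbp7 window 75.4%, while the Igfbp5 window, at 51.6%, was near the median of all upstream windows, 51.2%. Igfbp7 held 3 GC boxes, 121, 111 and 89 bases before its start. Grb10 held 4, and those 52 and 48 bases before the start overlap. Igfbp4 had the only TATAAA, 40 bases before its start. Over the full 250 bases, a GC box stood in 5 of the 9 members matched in the table, which are all but Pappa (the 5 are Igfbp2, Igfbp7, Igf1r, Igf2 and Grb10), and in 30.5% of 33469 promoters, and TATAAA in 1 of 9 and in 12.9%. The cyclic AMP response element TGACGTCA was in none of these 9 windows, which do not include Pappa, and in 1.59% of all, and the part TGACG, which lies within it, in none and in 18.2%. Neither TGANTCA, the AP-1 site (6.34% of all), nor CCAAT (34% of all) was found in any of the 9. All motifs were searched on both strands. A match describes letters in the window and is not a binding site, and the windows say nothing of sites elsewhere.

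Pappa stood at 376, 329 and 389 CPM in replicates 1 to 3 of the undifferentiated cells. Differentiated libraries held 6.26, 7.18 and 8.02 CPM, and dedifferentiated libraries 137, 147 and 160 CPM. The 3 stages did not overlap: every differentiated library was far below the others, and every dedifferentiated library lay between. Stage means were 365 ± 31.7, 7.15 ± 0.878 and 148 ± 11.3 CPM (SD, n = 3 each), so the mean in differentiated cells was 1.96% of that in undifferentiated cells, and the mean after withdrawal was 40.6% of it. As log2 changes these are -5.73 on differentiation, 4.38 on withdrawal and -1.35 between the end stages. The difference on differentiation was nearly as large within each sequencing project, -5.71 in replicates 1 and 2 together and -5.60 in replicate 3, and the difference on withdrawal was 4.40 and 4.32. Behind the lowest library stand 85 counts of Pappa and behind the highest 5942, so counting error is small against these differences.

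Of the inhibitors of PAPP-A, Stc2 fell on differentiation and was not called higher again on withdrawal. Its level was 8.94, 9.81 and 8.7 CPM in undifferentiated libraries, then 1.11, 0.232 and 0.432, then 0.339, 0.199 and 1.05. All undifferentiated libraries were above all others, and the differentiated and dedifferentiated libraries overlapped. Stc2 was over 0.772 CPM, the filter's level, in 5 libraries, the 3 undifferentiated ones among them. The log2 changes of the fit were -4.00 on differentiation and -4.06 between dedifferentiated and undifferentiated cells. Both are a description: Stc2 passed the filter only with its undifferentiated libraries, where it is high, so no test of a fall from them is given. From differentiated to dedifferentiated cells the log2 change was -0.07, with a 95% interval of -1.50 to 1.36. This interval rests on 25 and 20 counts in all. Stc1, the other stanniocalcin, had 13, 3 and 1 counts in the 3 stages, 11 of them in undifferentiated replicate 3, and was below the filter. Prg2, whose proform binds and inhibits PAPP-A, was at 0 in all 9 libraries, and the paralogue Pappa2 was not analysed here.

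Igfbp7, a secreted protein that binds IGFs with lower affinity than the other binding proteins, had the largest fold changes of the tested members on differentiation and on withdrawal. It stood at 5639, 4425 and 3985 CPM in undifferentiated cells, which is 0.398% to 0.564% of all counts. Differentiated libraries held 83.4, 61.6 and 72.1 CPM, and dedifferentiated libraries 1701, 2249 and 2115 CPM. No library of one stage reached the range of another. The stage means, 4683 ± 857, 72.4 ± 10.9 and 2022 ± 286 CPM (SD, n = 3), differ 64.7-fold on differentiation and 27.9-fold on withdrawal. The log2 changes were -6.08 ± 0.213 (SE; edgeR adjusted p = 5.68e-09), 4.81 ± 0.201 (adjusted p = 6.9e-08) and -1.27 ± 0.172 between the end stages (adjusted p = 0.000341). Ordered by log2 change on differentiation, Igfbp7 was number 42 from the lowest of 10372 genes. Replicates 1 and 2 gave -6.12 and replicate 3 gave -5.79. The mean after withdrawal was 43.2% of the undifferentiated mean, beside 40.6% for Pappa.

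Igfbp3, which carries most circulating IGF, dipped less deeply. Undifferentiated libraries held 48.4, 46.7 and 52.7 CPM, differentiated libraries 10.5, 5.79 and 9.07, and dedifferentiated libraries 24.2, 61.4 and 70.7. All differentiated libraries lay below all others, while the dedifferentiated libraries spread on both sides of the undifferentiated ones, replicate 1 below and replicates 2 and 3 above. The log2 change was -2.60 ± 0.349 (SE) on differentiation (edgeR adjusted p = 9.12e-05) and 2.62 ± 0.35 on withdrawal (adjusted p = 0.000155). Between the end stages it was 0.03 with a 95% interval of -0.66 to 0.72 (edgeR adjusted p = 0.957). Differences within that interval, in either direction, are not excluded. The return was 2.39 in the project of replicates 1 and 2 and 2.96 in that of replicate 3.

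Igfbp5, one of the substrates of PAPP-A, fell and stayed low. Levels were 348, 281 and 321 CPM in undifferentiated libraries, 106, 83 and 79.8 in differentiated libraries and 93, 67.9 and 69.4 in dedifferentiated libraries. All undifferentiated libraries were above all others, and the differentiated and dedifferentiated libraries overlapped. The log2 change was -1.89 ± 0.158 (SE) on differentiation (edgeR adjusted p = 2.64e-06) and -2.09 ± 0.16 between dedifferentiated and undifferentiated cells (adjusted p = 7.26e-06), with -0.21 on withdrawal (95% interval -0.55 to 0.14, adjusted p = 0.3). The mean after withdrawal was 24.2% of the undifferentiated mean, where the mean of Igfbp7 was at 43.2% and that of Igfbp3 at 106%.

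Igfbp4, the other main substrate of PAPP-A, was high in the stage where Pappa was low. It had 2, 6 and 5 counts in undifferentiated libraries, 135, 170 and 148 in differentiated libraries and 9, 6 and 5 in dedifferentiated libraries. In CPM these are 0.161, 0.577 and 0.327, then 9.95, 13.1 and 9.13, then 0.763, 0.596 and 0.376. Every differentiated library was above every other library, and the undifferentiated and dedifferentiated libraries overlapped. From the summed counts the level in differentiated cells was 31.1 times that in undifferentiated cells, with a 95% exact interval of 18 to 58.8 for counting error alone. The log2 changes of the fit were 4.87 on differentiation, -4.19 on withdrawal and 0.68 between the end stages. They are a description: Igfbp4 passed the filter through the differentiated libraries alone, so a gene with these counts could only have been tested if it were higher there.

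Igfbp2 and Igfbp6, which binds IGF2 in preference to IGF1, were close to absent. Igfbp2 had no counts in undifferentiated libraries, 1, 2 and 3 in differentiated libraries and 7, 1 and 1 in dedifferentiated libraries. Igfbp6 likewise had none in undifferentiated libraries, then 3, 0 and 1, then 2, 0 and 2. A count of 0 allows up to 0.288 CPM, the level of 3 counts, in the shallowest undifferentiated library. Both genes stayed under the filter at 0.772 CPM, and no change between stages can be read at this depth. Igfbp1, Igfbpl1 and Igfals, the remaining binding and carrier genes listed, were also under the filter.

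Igf2, the IGF ligand gene of the members, peaked in differentiated cells. Undifferentiated libraries held 0.886, 2.21 and 1.9 CPM, differentiated libraries 4.35, 4.01 and 4.56, and dedifferentiated libraries 1.36, 2.19 and 1.35. The differentiated libraries were all above the rest, and the undifferentiated and dedifferentiated libraries overlapped. The log2 change was 1.32 ± 0.34 (SE) on differentiation (edgeR adjusted p = 0.00645) and -1.40 ± 0.344 on withdrawal (adjusted p = 0.00712). Between the end stages it was -0.08, with a 95% interval of -0.89 to 0.73 (adjusted p = 0.894). Igf1, the second IGF ligand gene, was under the filter, with 7, 24 and 27 counts in undifferentiated libraries, 0, 2 and 0 in differentiated libraries and 6, 0 and 2 in dedifferentiated libraries. Its summed level was 32.5 times higher in undifferentiated than in differentiated libraries, with an exact 95% interval of 8.61 to 275 for counting error alone. Ins2, which encodes insulin and lies near Igf2, was at 0 in every library.

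H19, the imprinted non-coding RNA gene neighbouring Igf2, also peaked in the differentiated libraries. It had 1, 0 and 1 counts in undifferentiated libraries, 47, 44 and 49 in differentiated libraries and 12, 7 and 9 in dedifferentiated libraries. The stages did not overlap, and the dedifferentiated libraries lay in between. H19 was over the filter's 0.772 CPM in 4 libraries, the 3 differentiated ones and 1 dedifferentiated one. The summed level in differentiated libraries was 62.4 times that in undifferentiated libraries, where 2 counts give an exact 95% interval of 17 to 520. The log2 changes of the fit were 5.68 on differentiation, -2.02 on withdrawal and 3.66 between the end stages. They are a description: H19 passed the filter only with its differentiated libraries, where it is high, so no test is given. Igf2 was not called different between the end stages, and the difference between Igf2 and H19 was not tested.

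Igf1r, the receptor that carries the IGF signal, stayed within a narrow band. Its libraries held 71.8, 102 and 103 CPM in undifferentiated cells, 90.8, 91 and 94.9 in differentiated cells and 83.3, 92.1 and 84.1 in dedifferentiated cells. The 3 stages overlapped, and undifferentiated replicate 1 was the lowest of the 9. The log2 changes were -0.06 on differentiation (95% interval -0.31 to 0.20), -0.08 on withdrawal (-0.34 to 0.18) and -0.14 between the end stages (-0.39 to 0.12), with edgeR adjusted p of 0.696, 0.593 and 0.417. Without undifferentiated replicate 1, Igf1r was called lower in dedifferentiated than in undifferentiated cells, with a log2 change of -0.27 (adjusted p = 0.0308).

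Of the other receptors listed, Insr, Igf2r and Lrp1 passed the filter and changed on differentiation. Insr, the insulin receptor gene, fell from 39 ± 2.62 to 20 ± 2.38 CPM (SD, n = 3) on differentiation (log2 change -1.03, edgeR adjusted p = 6.1e-05) and was at 20.4 ± 2.92 CPM after withdrawal (-0.98 against undifferentiated cells, adjusted p = 0.000312). Igf2r, whose product takes IGF2 up for degradation, rose from 80.3 ± 6.3 to 212 ± 24.8 CPM (log2 change 1.34, adjusted p = 0.000474) and fell to 60.6 ± 24.6 CPM after withdrawal (-1.79, adjusted p = 0.000127). Against undifferentiated cells the last value was not called (-0.45, adjusted p = 0.165), but without dedifferentiated replicate 1, at 88.3 CPM where replicates 2 and 3 held 41.1 and 52.4, it was called lower (-0.85, adjusted p = 0.002). Lrp1, an endocytic receptor, fell from 935 ± 110 to 638 ± 55.5 CPM (adjusted p = 0.00342) and stood at 626 ± 125 CPM after withdrawal (adjusted p = 0.0073 against undifferentiated cells). Insrr had at most 2 counts in a library.

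Grb10 held 322, 362 and 357 CPM in undifferentiated libraries, 101, 111 and 125 in differentiated libraries and 111, 123 and 116 in dedifferentiated libraries. Every undifferentiated library was above every other one, and the last stages overlapped fully. Means were 347 ± 21.8, 112 ± 12 and 117 ± 5.81 CPM (SD, n = 3), so differentiated cells held 32.4% of the undifferentiated mean and dedifferentiated cells 33.7%. The log2 changes were -1.69 on differentiation, 0.07 on withdrawal and -1.62 between the end stages. Within projects the first was -1.69 in replicates 1 and 2 and -1.51 in replicate 3, and the withdrawal value changed sign, 0.14 and -0.10. Grb10 thus went from 32.4% to 33.7% of its undifferentiated mean on withdrawal, and Pappa from 1.96% to 40.6% of its own.

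**Figure D2:**
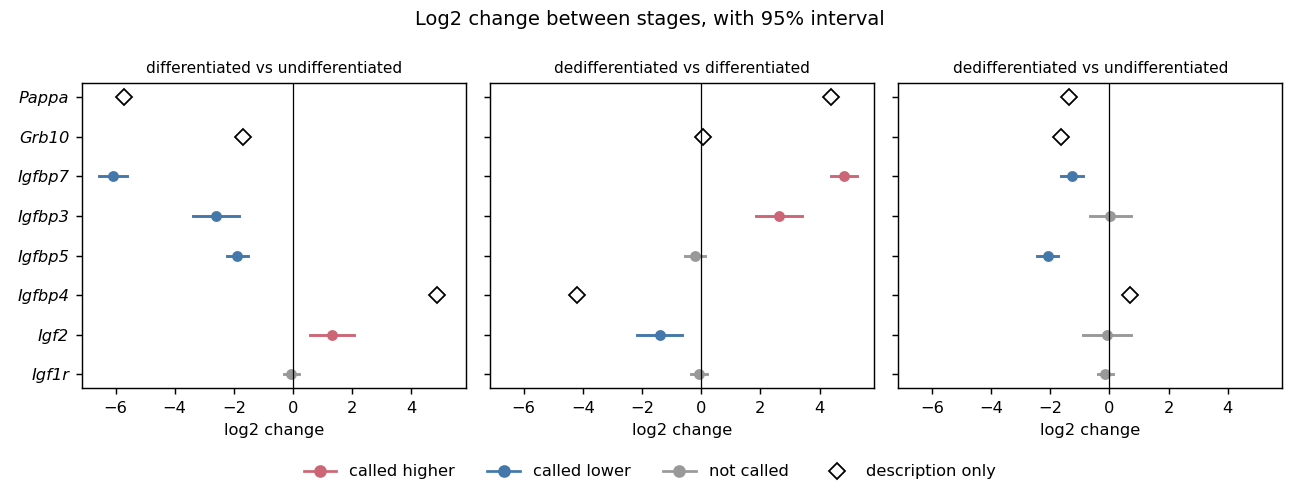
Log2 change of the 8 genes between stages, from the fit over all genes. Filled points with bars are estimates with 95% intervals for the 5 tested genes, coloured by call, and open diamonds are Pappa, Grb10 and Igfbp4, which carry no test. Igfbp7 runs from -6.08 to 4.81 and -1.27 across the panels, and Igf1r stays within 0.14 of 0.

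Beyond the members, 51 further genes of the IGF pathway had been listed by role, 46 of them with a row and 36 past the filter. On differentiation 23 of the 36 changed by edgeR, 12 higher and 11 lower, with a median log2 change of 0.01 beside 0.05 over all genes. On withdrawal 18 changed, 7 higher and 11 lower (median -0.07, all genes -0.01), and between the end stages 15 changed, 7 higher and 8 lower (median -0.03, all genes 0.02). The called shares were 63.9%, 50% and 41.7% of the 36 genes, beside 59.6%, 46.4% and 29.4% of all genes, and are given as a description. Stc2 and H19, described above with no test against the stage where they are high, are counted among the 36. So is Pik3cb, which had 0.403, 0.192 and 0.393 CPM in undifferentiated libraries, all under the filter's 0.772 CPM. It passed through the other stages, so its calls as higher than in undifferentiated cells are no test either. The counts and shares above include the calls of these genes.

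Proteases that cut IGF binding proteins other than PAPP-A went both ways. Htra1, a secreted serine protease, rose from 528 ± 46.3 to 1676 ± 72.8 CPM (SD, n = 3) on differentiation (log2 change 1.61, edgeR adjusted p = 7.3e-08) and fell to 643 ± 20.2 CPM on withdrawal (-1.37, adjusted p = 6.06e-07). Its remaining difference from undifferentiated cells, 0.24 (adjusted p = 0.0484), lost its call when any 1 of the 9 libraries was left out, with an adjusted p from 0.0564 to 0.189. Adam9, a membrane-bound metalloprotease, fell from 116 ± 7.47 to 62.9 ± 2.89 CPM (-0.95, adjusted p = 1.23e-06) and rose to 82.9 ± 2.94 CPM (0.41, adjusted p = 0.000949), still below its start (-0.54, adjusted p = 0.000295). Htra1 was thus highest in the stage where Pappa was lowest.

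Of 9 tested adaptors and turnover genes, 6 changed on differentiation, 3 in each direction, 4 on withdrawal and 2 between the end stages. Of all tested genes, 59.6%, 46.4% and 29.4% were called in these comparisons. Gab1, a docking protein that links receptors to PI3K, fell from 497 ± 43 to 289 ± 9.47 CPM (SD, n = 3; log2 change -0.85, edgeR adjusted p = 7.42e-06) and rose to 502 ± 12.5 CPM on withdrawal (0.81, adjusted p = 2.22e-05). In the PI3K-AKT-mTOR branch 9 of 19 tested genes changed on differentiation, 5 higher and 4 lower, and 9 on withdrawal, 4 higher and 5 lower. Between the end stages 7 of 19 changed, 5 higher and 2 lower. The same shares of all genes stand beside these counts, and Pik3cb, with the limit given above, is among the genes called. Tsc2, a brake on mTOR, fell from 185 ± 19.6 to 76.1 ± 5.73 CPM (-1.34, adjusted p = 9.32e-07) and rose to 133 ± 12.2 CPM (0.81, adjusted p = 7.69e-05). Pik3r1, a regulatory subunit of PI3K, rose from 24.6 ± 0.771 to 55.6 ± 5.77 CPM (1.12, adjusted p = 3.33e-05) and was at 60.4 ± 9.66 CPM after withdrawal (1.25 against undifferentiated cells, adjusted p = 5.94e-05). Gab1 and Tsc2 therefore dipped as Pappa and Igfbp7 did, though by less than 1.5 on the log2 scale, while the change of Pik3r1 on withdrawal was 0.13 (adjusted p = 0.422).

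**Figure D3:**
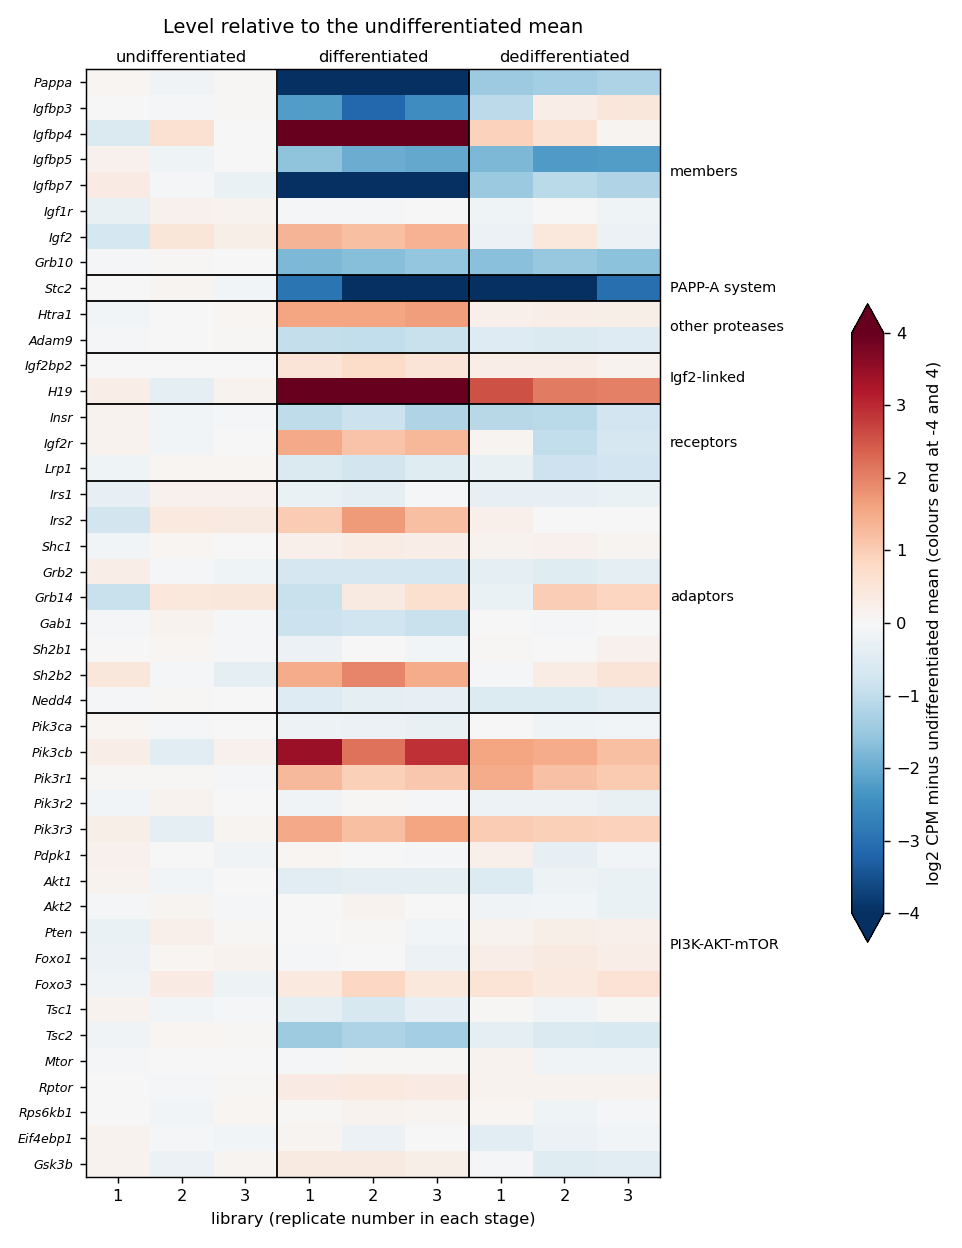
Log2 CPM of each library minus the mean of the undifferentiated libraries, for the 8 members that passed the filter and 35 of the 36 pathway genes that did, grouped by role, with colours capped at -4 and 4. Columns are the 3 libraries of each stage. The strongest blue rows in differentiated cells are Pappa, Igfbp7 and Stc2, and the strongest red ones Igfbp4 and H19. Grb10, Igfbp5, Stc2 and, more faintly, Insr are about as blue in the dedifferentiated columns, where Pappa and Igfbp7 are paler but still blue.

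Over the 9 libraries, the genes whose log2 CPM was most like that of Pappa were Sorbs2 (Pearson r 0.999), Myo10 (0.998), Fam131b (0.997), Chmp4c (0.997) and Qsox1 (0.997). Sorbs2, for example, averaged 290, 7.59 and 127 CPM in the 3 stages and Qsox1 458, 69.3 and 290. At a looser cut, 230 genes had an r over 0.98 with Pappa. The 9 points are 3 groups of 3 libraries and share their stage. For Grb10 the closest were Sla (0.994), Fam101b (0.991), Zdhhc5 (0.989), Pxdn (0.989) and Ucp2 (0.988), and 12 genes were over 0.98. Pxdn, which encodes a peroxidase of the extracellular matrix, averaged 923, 295 and 332 CPM. Ranked by Spearman's coefficient, none of these 5 genes stayed among the first 5 for either lead gene. Among the members, r with Pappa was 1.00 for Igfbp7, 0.92 for Igfbp3, 0.71 for Grb10, 0.60 for Igfbp5, 0.00 for Igf1r, -0.86 for Igf2 and -0.98 for Igfbp4. With Grb10 it was 0.95 for Igfbp5, where Spearman's rho was only 0.38, then 0.68 for Igfbp7, 0.53 for Igfbp3, 0.31 for Igf1r, -0.43 for Igf2 and -0.61 for Igfbp4. These coefficients describe 9 libraries and carry no test.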

How the data were processed

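Cell mRNA was measured in 9 libraries (3 stages, 3 replicates), and miRNA and lncRNA of extracellular vesicles in 18 more. The cell values are estimated counts per gene deposited by the authors. Salmon, STAR, Trim Galore and DESeq2 1.26.0 are among the tools in the submitters' processing notes, and the genome build and annotation are not given in the sources used here. The vesicle tables hold raw counts as deposited by the authors. Libraries were made with a directional kit, per the labels' protocols. Whether counting used strand is not given in the sources used here.

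Of the estimated counts 1.15% were fractional and were rounded. Replicate suffixes in the column names disagree with the sample titles, and the titles were followed. CPM used totals over all rows. With edgeR 4.0.16 in R 4.3.3, genes were kept by filterByExpr (minimum count 10, here 0.772 CPM), scaled by TMM and tested by the quasi-likelihood test over all 9 libraries with no covariates. Benjamini-Hochberg adjustment ran over all 10372 genes, and calls are at 0.05. Standard errors are the log2 change divided by the square root of F. Likeness used log2 CPM with a prior count of 2. The test was run on simulated counts with few genes changed, in differentiated libraries alone, and no replicate or project effect. That setting is simpler than these libraries. Alternatives were the replicate block, sequencing project, DESeq2 size factors, no composition factor, DESeq2 1.42.0, no filter, only the stages compared, and each library left out.

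The members and lists were chosen with earlier results of these data known. Named pathway genes are, per comparison, the 3 with the smallest adjusted p in each direction plus the PAPP-A system, ligands and receptors. A pathway gene and some listed Schwann cell markers are not reported here. The 5 genes most like Pappa and Grb10 leave out members and placeholder names. RefSeq tables of GRCr8 gave promoters and gene order. Exact intervals cover counting error only.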

Additional observations from a re-analysis of the deposited data

Results flagged for a closer look

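The hairpin entry rno-mir-675, the precursor of miR-675 that is processed from H19, was counted in the extracellular vesicle miRNA tables, outside the comparisons above. Differentiated replicate 3 held 14 counts, or 94.3 CPM, with a 95% exact Poisson interval of 51.6 to 158 CPM. The undifferentiated vesicle libraries held none, and 3 counts in the shallowest of them would be 36.7 CPM. Differentiated replicates 1 and 2 also held none. Among dedifferentiated libraries replicate 2 held 12 counts and the others 0. The mature entry rno-miR-675-3p had 1, 0 and 1 counts in undifferentiated libraries and none elsewhere. The counts thus sit in 2 libraries, 1 differentiated and 1 dedifferentiated, and no stages were compared on them.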

How the results depend on the processing

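In 16 alternatives per comparison, no tested member changed direction among its called values. The counts of called genes among the 5 tested members stayed at 4, 3 and 2, with 1 exception. These are for differentiated against undifferentiated, dedifferentiated against differentiated, and dedifferentiated against undifferentiated. Leaving out undifferentiated replicate 1 added Igf1r to the last. For Pappa the log2 changes ranged from -5.83 to -5.65, 4.30 to 4.47 and -1.44 to -1.30, and for Grb10 from -1.76 to -1.62, 0.01 to 0.14 and -1.68 to -1.57. With a replicate block the counts were 6325, 5031 and 3256 of all genes (6179, 4809 and 3045 without it). The same 4, 3 and 2 tested members were called, and 24, 18 and 18 pathway genes (23, 18 and 15 without it). Same-numbered libraries correlated in their deviations from stage means by 0.18 on average (0.03 to 0.30), against -0.08 for other-numbered ones, and in 15 of 18 checks a library correlated best with its own number. This is a hint of pairing from the data, and the library codes also run in sequence within each replicate number, though no pairing is stated. Centring on stage means ties the other-numbered value to the same-numbered one, so these values are not independent. For replicate 3, pairing also cannot be told apart from its separate sequencing project code. Since 7 of 9 pairs, not all, were over 0.1 and the titles state no pairing, the fit without the block was kept. Leaving out single libraries gave 22 to 25, 13 to 19 and 11 to 16 called pathway genes. Other scalings moved the median log2 change of all genes by at most 0.06. Depth limits Igfbp2, Igfbp6, Igfbp4 outside differentiated cells, Stc1 and Igf1, and 3 libraries per stage limit every interval.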

Other observations

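Genes next to the members in GRCr8 order were looked at. Those given here were chosen after their values were seen, so their values are a description and carry no test. Tnc, the gene of the matrix glycoprotein tenascin-C, is the neighbour of Pappa and averaged 4298 ± 552, 95 ± 29.6 and 1074 ± 19.5 CPM (SD, n = 3) in undifferentiated, differentiated and dedifferentiated cells. Its log2 changes were -5.56 on differentiation, 3.51 on withdrawal and -2.05 between the end stages. Astn2, on the other side of Pappa, averaged at most 0.0491 CPM in a stage. Top2a, a proliferation marker beside Igfbp4, averaged 5.63 ± 5.19, 48.9 ± 25.9 and 12.9 ± 4.05 CPM, with log2 changes of 3.04 on differentiation and -1.91 on withdrawal. Tns4, on the other side of Igfbp4, averaged at most 0.0501 CPM. Igfbp2 and Igfbp5 are neighbours, and only Igfbp5 passed the filter. Rpl37a, the next gene beyond Igfbp2, was at 174, 171 and 191 CPM.

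In the lncRNA table of extracellular vesicles, H19 had 1, 1 and 1 counts in undifferentiated, 2, 6 and 10 in differentiated and 0, 4 and 6 in dedifferentiated libraries. As CPM of the lncRNA totals these are 383, 76.9 and 70.3, then 256, 369 and 274, then 0, 465 and 794, from totals of 2614 to 36563 counts, and the stages overlap. The hairpin rno-mir-483, whose gene lies within Igf2, had 1, 4 and 3, then 0, 0 and 3, then 0, 0 and 5 counts in vesicle miRNA libraries.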
